A study of Mus musculus with 34 samples.

Results

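The 39 Hox genes of the mouse lie in 4 clusters, and the chromatin of these clusters was examined in 10 lists of binding peaks from Beta-TC6 cells, an insulin-producing mouse β-cell line. The members were the protein-coding genes whose symbols are Hoxa, Hoxb, Hoxc or Hoxd followed by a number, 39 of 21775 protein-coding genes. A peak was given to the nearest protein-coding gene body within 50 kb. Of 174035 peaks in all lists, 6 belonged to a Hox gene.

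Hox genes encode homeodomain transcription factors that give cells their position along the head-to-tail axis of the embryo, and their order on the chromosome follows the order of the body regions in which they act. Where a cluster is silent, Polycomb complexes keep it so by marking its histones and compacting its chromatin, and trithorax proteins oppose them. Many Hox proteins bind DNA together with TALE homeodomain cofactors of the Pbx and Meis families. Pdx1 is a relative of the Hox genes from the ParaHox cluster and maintains β-cell identity.

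Chromatin immunoprecipitation followed by sequencing (ChIP-seq) was used for 3 proteins: the NF-κB subunit p65 (RELA), which activates inflammatory genes, PDX1, and SIN3A, a corepressor that brings histone deacetylases to chromatin. Antibodies to p65 and PDX1 were used in wild-type (WT) cells and in cells lacking Bmal1 (Bmal1-/-), an activator of the core circadian clock, each as control and with the cytokine IL-1β. Each of these 8 groups had 3 immunoprecipitated samples. SIN3A was examined in WT cells that received control siRNA or Pdx1 siRNA, with 2 samples per group, and 6 input samples brought the series to 34. Every group had been synchronised by a 1 h pulse of 10 µM forskolin. The labels leave out the dose and duration of IL-1β, whether the knockout line was a single clone, and whether the samples of a group were separate cultures. The antibody entry of the PDX1 samples with IL-1β names p65, and the titles, which name PDX1, were followed.

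The lists held 173 to 40028 peaks from 31.0 to 63.9 M tags, 1 list per group. No values of single samples were in them, so no spread between samples could be measured and nothing was tested between conditions. A gene with no peak in a list is one where nothing passed the list's threshold, which is not a measurement of no binding. The lowest peak score was 20 and 19 in the WT p65 lists without and with IL-1β and 20 and 22 in the WT PDX1 lists. It was 35 and 21 in the knockout p65 lists, 34 and 32 in the knockout PDX1 lists, and 15 in both SIN3A lists. Weak peaks could therefore enter some lists and not others. Peaks were 479 bp wide for p65 in knockout control cells, and 472 and 418 bp for PDX1 in knockout cells without and with IL-1β. In the other lists they were 206 to 231 bp wide. The score is a tag count over the peak, so lowest scores of lists with unlike widths are not an equal bar. Of 13 β-cell marker genes, 12 had a PDX1 peak in WT control cells, where 42.2% of all genes had one. The lists hold no expression, so Bmal1 loss and Pdx1 knockdown could not be checked.

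**Figure D1:**
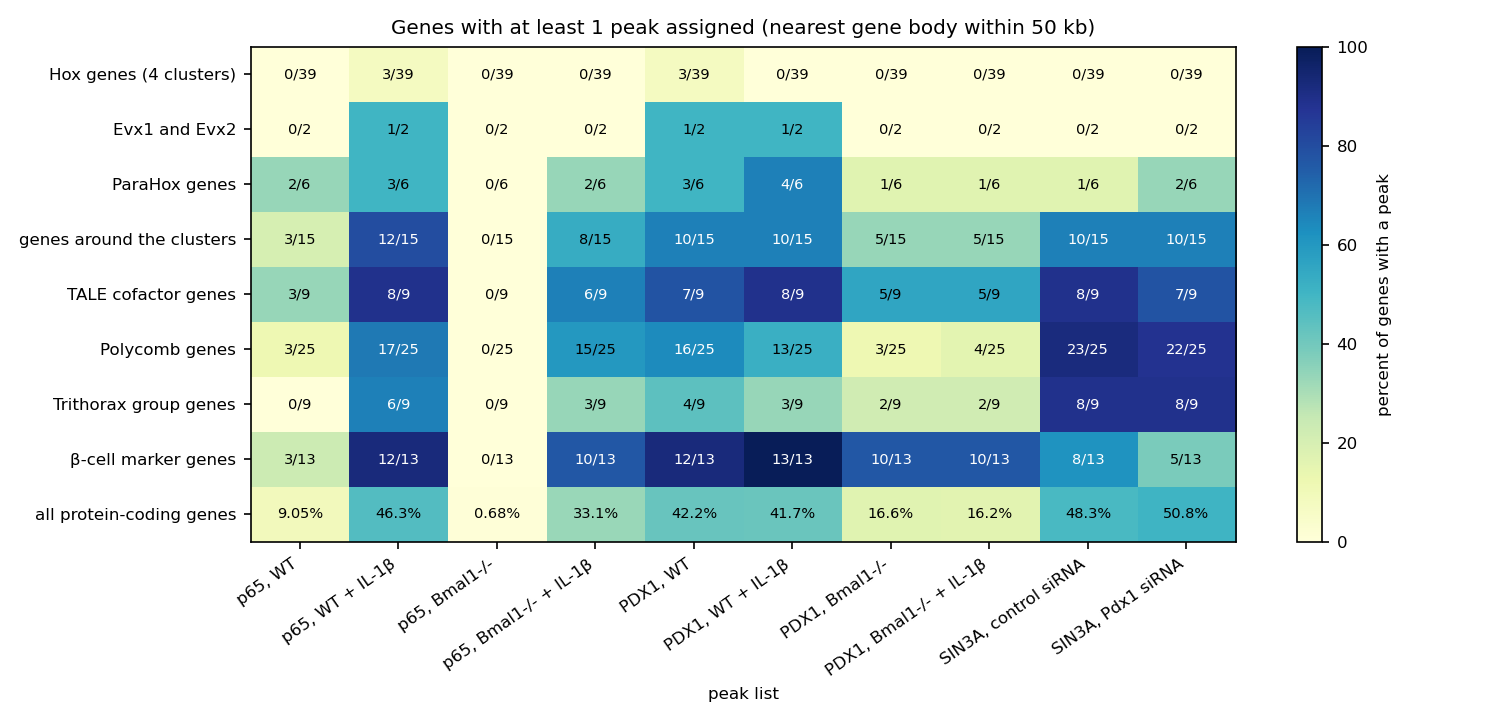
Number of genes with at least 1 peak for the Hox genes and other gene lists (rows) in each of the 10 peak lists (columns), coloured by percent of genes, with all protein-coding genes in the bottom row. The Hox genes had a peak in 2 of the lists, at 3 of 39 genes each, and at 0 of 39 in the other 8.

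Hox genes with a peak were few in the lists that held any, and none were found in the rest. With IL-1β, WT cells had a p65 peak at 3 of 39 Hox genes, beside 46.3% of all genes. In WT control cells PDX1 had a peak at 3 of 39, beside 42.2% of all genes. SIN3A had a peak at 0 of 39 Hox genes with control siRNA, beside 48.3% of all genes, and at 0 of 39 with Pdx1 siRNA, beside 50.8%. These 2 lists held 13109 and 14653 peaks.

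The p65 list of WT control cells had 0 Hox genes with a peak, beside 9.05% of all genes. The knockout p65 lists had 0 without and 0 with IL-1β, beside 0.68% and 33.1%. For PDX1 the count was 0 in WT cells with IL-1β, beside 41.7%, and 0 in knockout cells without and with IL-1β, beside 16.6% and 16.2%. In the shortest list, with 173 peaks, a count of 0 for 39 genes says little, since 0.68% of genes had a peak there.

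Hox genes are short and lie close together, so a count per gene depends on the length of genome open to each. Their median length was 3.74 kb, against 17.2 kb for all genes. The stretch of genome for which a Hox gene was the nearest gene within 50 kb came to 764.3 kb, of which 236.2 kb belonged to Hoxb, 215.7 kb to Hoxc, 181.8 kb to Hoxa and 130.6 kb to Hoxd. Counted per length, the p65 list of WT cells with IL-1β had 3.93 peaks per Mb in this Hox stretch and 14.7 per Mb in that of all genes. PDX1 in WT control cells had 3.93 peaks per Mb in the Hox stretch and 16.4 per Mb over all genes. The density was 0 in the Hox stretch for SIN3A, against 7.63 per Mb over all genes with control siRNA and 8.48 with Pdx1 siRNA. PDX1 in WT cells with IL-1β had 0 against 16.1 per Mb, and p65 in knockout cells with IL-1β had 0 against 7.81. The shares of genes and the densities per length were therefore both below those of all genes in these lists. The remaining lists had 3.46 peaks per Mb or fewer over all genes, so a density of 0 in the short Hox stretch says less there.

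**Figure D2:**
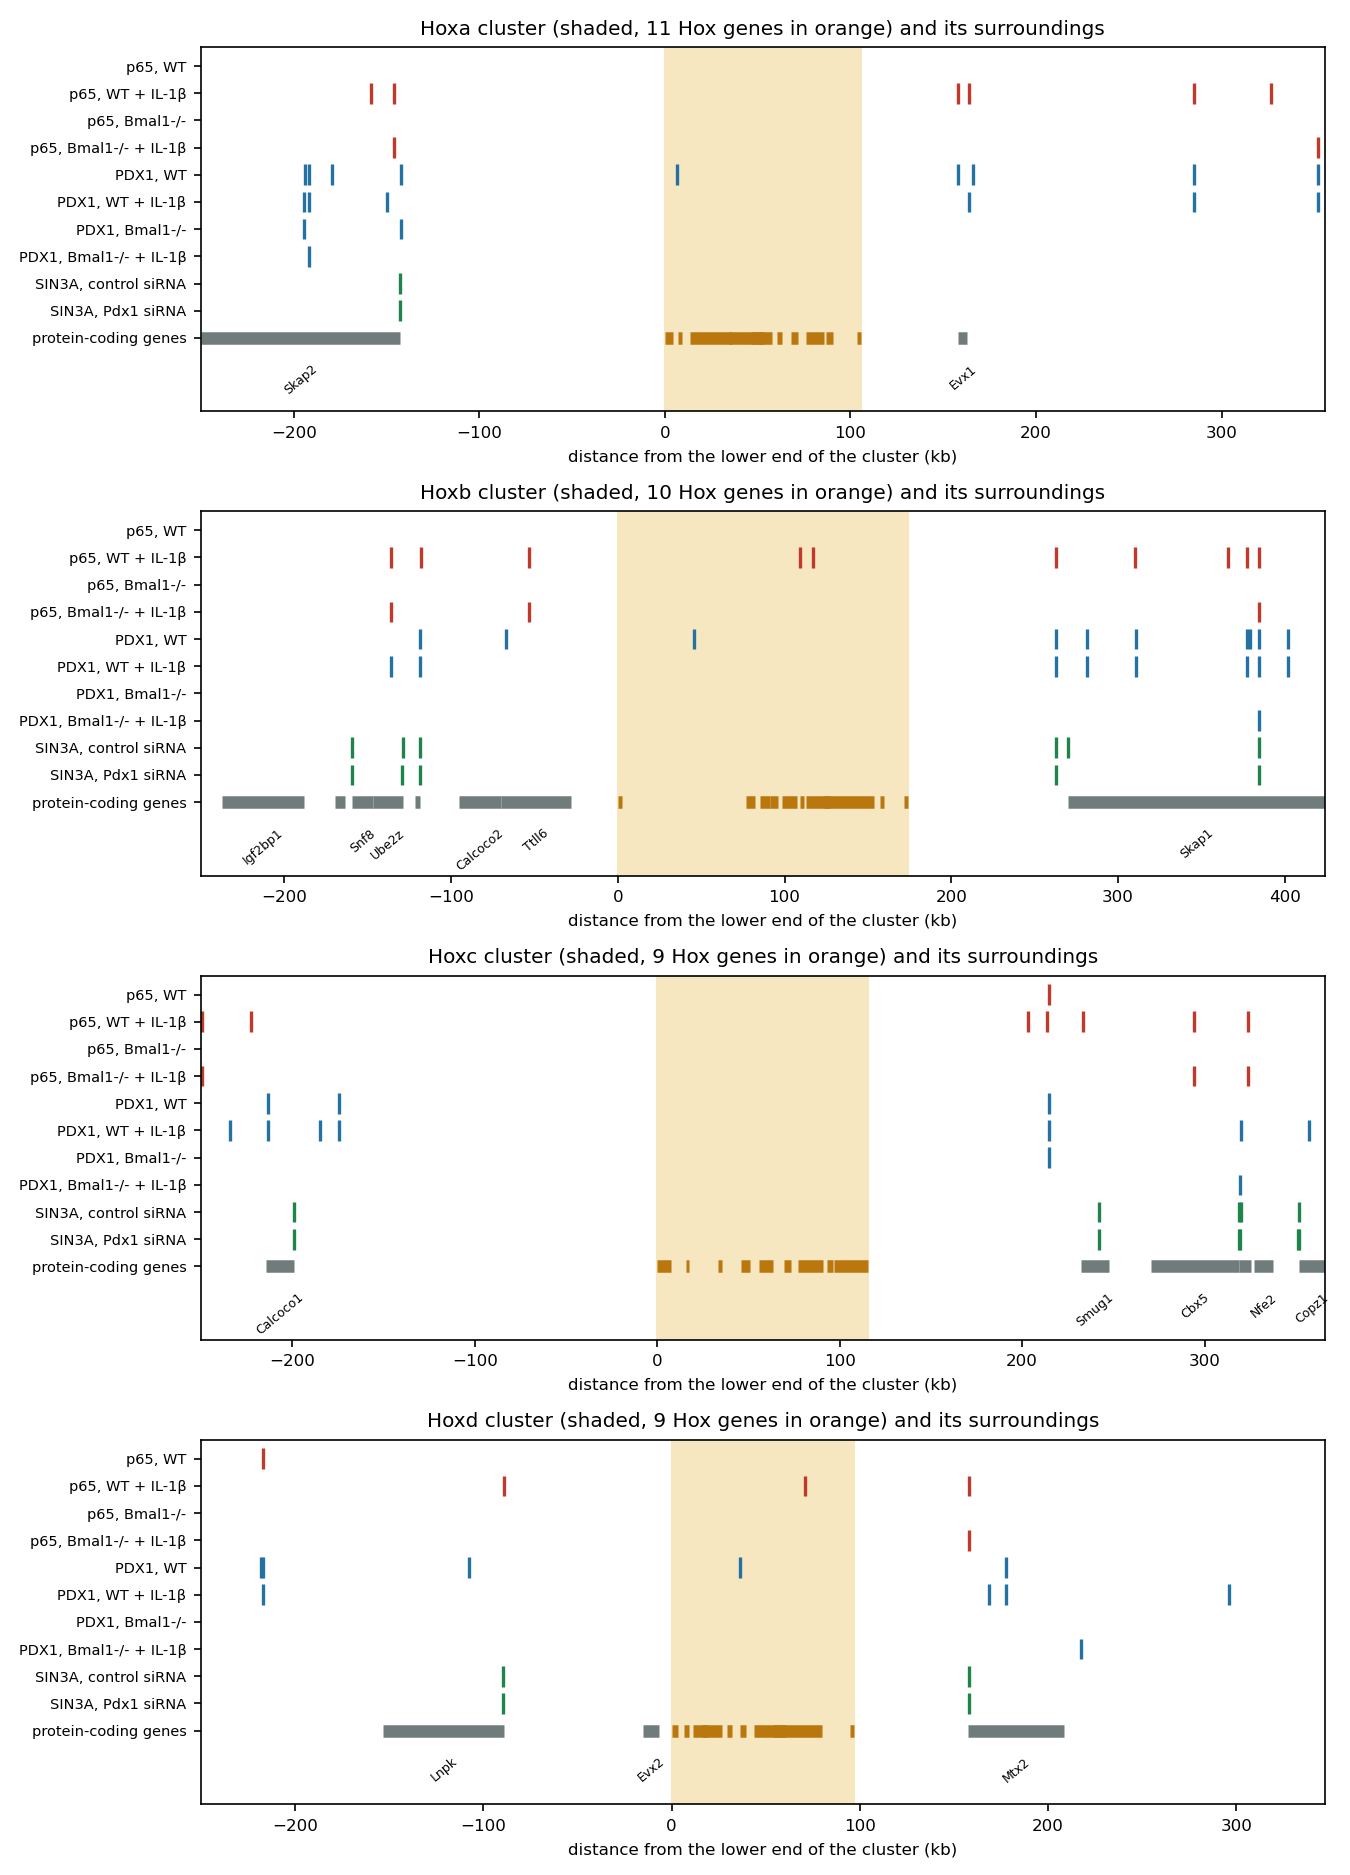
Positions of the Hox genes and of the peaks in and around the 4 clusters, by distance from the cluster's lower end in kb (horizontal axis), with 1 row per peak list and genes at the bottom. No mark lies over the 9 Hoxc genes, and no SIN3A mark lies within any of the 4 clusters.

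The Hoxc cluster (chromosome 15, 102921131 to 103036856, mm10) had no peak of any list. Its 9 genes run from Hoxc13 to Hoxc4 over 115.7 kb. Hoxc4 to Hoxc6 are genes of the neck and thorax, and Hoxc9 to Hoxc13 of the trunk, limb and tail. The nearest peak of any list on the side of Hoxc13 ended 174.0 kb away and came from PDX1 in WT control cells. On the side of Hoxc4 the nearest peak started 87.5 kb away and came from p65 in WT cells with IL-1β. Between them, 377.2 kb held no peak of any of the 10 lists. The lists give neither input coverage nor mappability for the clusters, and the part of these in the counts of 0 was not tested. For single lists the peak-free stretch around Hoxc was longer, 388.5 kb for PDX1 in WT control cells, 426.0 kb for p65 in WT cells with IL-1β and 441.0 kb for SIN3A with either siRNA.

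The Hoxd cluster (chromosome 2, 74668225 to 74765142, 96.9 kb, 9 genes) held the peak with the highest score of the 6. It was a p65 peak of WT cells with IL-1β inside the gene body of Hoxd3 (74738819 to 74739025), a gene of hindbrain and neck patterning. The authors' values for it were 19.1 tags per 10 M, a score of 92 and 19.1-fold over input. It ranked 8792 of 31389 by score, with 28.0% of the list above it. Hoxd4, whose body lies within the long Hoxd3 entry, was the next Hox gene, 9659 bp away. The gene table used gives gene bodies without exons, so the peak could not be placed in an exon or intron.

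This Hoxd3 peak overlapped no peak of another list. The nearest p65 peak was 86.9 kb away in knockout cells with IL-1β and 287.6 kb away in WT control cells. Of the 116 peaks with the same score of 92 in its own list, 59 (50.9%) overlapped a knockout p65 peak, and 3 (2.59%) a WT control p65 peak. A peak of this score was thus found in the knockout list about as often as not. The nearest PDX1 peak with IL-1β in WT cells was 97.9 kb away, and the nearest SIN3A peak with control siRNA 87.0 kb.

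The other p65 peaks of WT cells with IL-1β lay in the Hoxb cluster (chromosome 11, 96194316 to 96368254, 173.9 kb, 10 genes). The first was inside Hoxb3 (96311551 to 96311757), also a hindbrain gene, with 5.04 tags, a score of 28 and 7.58-fold over input. By score, 80.8% of the list stood above it. The second lay 54 bp outside the body of Hoxb5 (96303252 to 96303458), with 3.36 tags, a score of 20 and 5.06-fold over input, and 96.1% of the list stood above it.

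These Hoxb3 and Hoxb5 peaks were near the bottom of their list and had no counterpart elsewhere. The nearest knockout p65 peaks with IL-1β were 170.4 kb and 162.1 kb away. Overlap with that list was rare for peaks of the same score in general, 33 of 512 peaks (6.45%) at 28 and 16 of 613 (2.61%) at 20. Among the 3 p65 peaks, 1 (Hoxd3) reached 8-fold over input. No Hoxa gene had a p65 peak in any list.

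**Figure D3:**
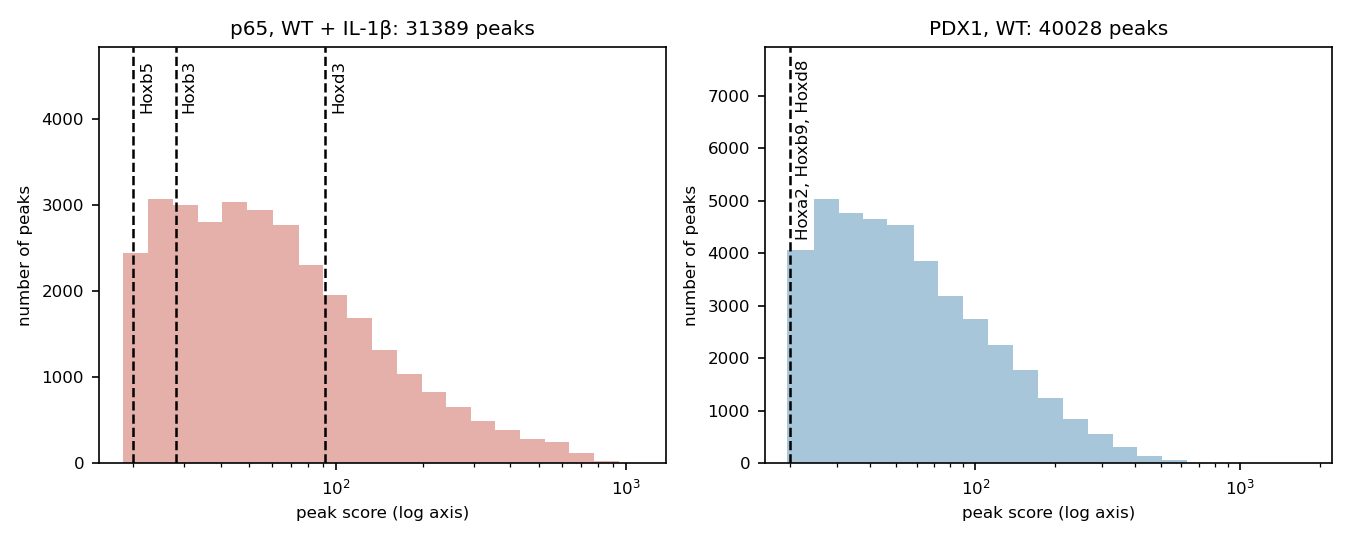
Number of peaks (vertical axis) by the authors' peak score (horizontal log axis) in the 2 lists that held Hox peaks, with dashed lines at the scores of the Hox peaks. Hoxd3 lies at 92 in the p65 list, and the 3 Hox peaks of the PDX1 list lie at its lowest score, 20.

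The 3 PDX1 peaks at Hox genes in WT control cells all had the lowest score of their list, 20, which 838 of its 40028 peaks shared. At Hoxa2 (chromosome 6, cluster 52155367 to 52260880, 105.5 kb, 11 genes), the gene that patterns the second pharyngeal arch, the peak (52161591 to 52161797) lay 620 bp from the gene. It had 3.32 tags and was 8.89-fold over input. The peak given to Hoxb9 (chromosome 11, 96239992 to 96240198), a gene of the thoracic region, had the same 3.32 tags and 8.89-fold over input but stood 31132 bp from the gene body, in the wide gap towards Hoxb13.

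The third PDX1 peak (chromosome 2, 74704272 to 74704478) lay 137 bp outside the body of Hoxd8, a trunk patterning gene, with 2.82 tags and 7.55-fold over input. It was the only one of the 6 Hox peaks to reach into a Hox promoter among those that could be read. Promoters of Hoxb3, Hoxb5 and Hoxb9 were not among these. Whether the p65 peak 54 bp from Hoxb5 reaches its promoter could therefore not be checked. The Hoxd8 promoter from RefSeq (build GRCm38.p6, the assembly of mm10, 250 bases before to 50 after the start) is at chr2:74704365-74704664 on the plus strand. It is shown because it is where a PDX1 peak met a Hox promoter, with the 114 bases inside the peak in capitals.
Hoxd8: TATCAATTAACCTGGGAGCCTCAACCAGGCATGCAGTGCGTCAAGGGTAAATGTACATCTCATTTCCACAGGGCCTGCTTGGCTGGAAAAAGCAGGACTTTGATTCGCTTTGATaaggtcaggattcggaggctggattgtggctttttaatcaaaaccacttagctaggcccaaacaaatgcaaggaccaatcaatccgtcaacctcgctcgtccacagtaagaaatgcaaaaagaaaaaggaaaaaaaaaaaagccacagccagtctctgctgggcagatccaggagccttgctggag
PDX1 is a homeodomain factor, and the core letters TAAT, searched on both strands, occurred 2 times in this promoter, 1 of them inside the peak. The longer TAATTA, which contains TAAT, occurred 0 times. A TAAT match is common and is no sign of a site, since 51.8% of 21262 RefSeq promoters of this length held one.

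None of the 3 PDX1 peaks was in another list. With IL-1β in WT cells, the nearest PDX1 peak was 156.0 kb from that of Hoxa2, 164.4 kb from that of Hoxb9 and 132.4 kb from that of Hoxd8. The lowest score in that list was 22, above the 20 of these peaks. Among all 838 WT control PDX1 peaks of score 20, 106 (12.6%) overlapped a PDX1 peak with IL-1β and 2 (0.239%) a PDX1 peak of knockout cells. Absence from those lists was the rule for peaks this weak.

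Over the whole comparison, 0 of 3 Hox peaks were shared between lists in each of the 8 pairs examined, with a Wilson 95% interval of 0 to 56.1% that covers counting error only. Of all p65 peaks in WT cells with IL-1β, 40.7% overlapped a p65 peak of knockout cells with IL-1β, 5.07% one of WT control cells, 33.8% a PDX1 peak with IL-1β and 5.22% a SIN3A peak. Of all PDX1 peaks in WT control cells, 60.1% overlapped a PDX1 peak with IL-1β, 19.1% one of knockout control cells, 4.37% a p65 peak and 2.24% a SIN3A peak. With 3 peaks the interval for the Hox genes includes all of these shares but that of 60.1%, which is taken over peaks of any score. In that pair the Hox peaks had a score of 20, below the lowest score of the IL-1β list. Of all WT control PDX1 peaks with this score, 12.6% overlapped a PDX1 peak with IL-1β, a share that the interval includes. No difference from all peaks is read from this pair.

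On either side of each cluster the nearest SIN3A peaks were at other genes. On one side of Hoxa the last SIN3A peak was at Skap2, an adaptor protein of signalling in immune cells, with 28.7 tags under control siRNA and 30.0 under Pdx1 siRNA. On the other it was at Hibadh, a mitochondrial enzyme of valine breakdown, with 20.3 and 26.0 tags. Between them lay 627.6 kb with no SIN3A peak in either of the lists, which held Evx1 besides the 11 Hoxa genes.

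Hoxb lay in a SIN3A-free stretch of 381.2 kb with control siRNA and 381.1 kb with Pdx1 siRNA. It ran from Atp5g1, a subunit of the mitochondrial ATP synthase, at 24.5 and 33.7 tags, to a peak near Skap1, at 17.1 and 18.6 tags. The stretch around Hoxc ran from Calcoco1 (12.9 and 14.6 tags) to Smug1, a uracil DNA glycosylase of base excision repair (20.0 and 17.7 tags). That around Hoxd was 247.1 kb and 247.3 kb, from Lnpk, a protein of endoplasmic reticulum junctions (19.0 and 28.6 tags), to Mtx2, a mitochondrial outer membrane protein (15.1 and 18.0 tags). Each of the 8 bounding peaks overlapped its counterpart in the other siRNA list. Tag counts are per 10 M tags, and no difference between the siRNA lists was read from them.

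Other stretches without a SIN3A peak held as many genes. Between neighbouring SIN3A peaks, 184 of 13086 stretches (1.41%) with control siRNA and 176 of 14630 (1.2%) with Pdx1 siRNA held at least 9 whole protein-coding genes, 9 being the size of the smallest Hox cluster. The 4 Hox stretches are among them by construction, since no SIN3A peak lies in a cluster. The median stretch was 50.05 kb and 45.4 kb long and held 0 whole genes. The measure was chosen after the values had been seen and describes these lists. The 4 stretches hold clustered, related genes and are not 4 independent observations.

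Promoters of the Hox genes were read from the RefSeq promoter table, which held 24 promoters for 22 of the 39 genes. Of these 24, 0 overlapped a SIN3A peak in either list, beside 24.6% of all 21262 promoters for control siRNA and 24.9% for Pdx1 siRNA. Over all genes the share rose with CpG content, the dinucleotide that CpG islands are rich in, so the same was counted among promoters with at least 15 CpG. Of these, 12 belonged to Hox genes and 0 of the 12 had a SIN3A peak, beside 45.0% and 45.3% of all 9956. Because the table covers 22 of 39 Hox genes (56.4%), the check of CpG content is void for the Hox genes as a whole and describes the 22 alone. Most of these are Hoxa and Hoxd genes, with Hoxb1, Hoxb4 and Hoxb8 from Hoxb and Hoxc4 alone from Hoxc.

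**Figure D4:**
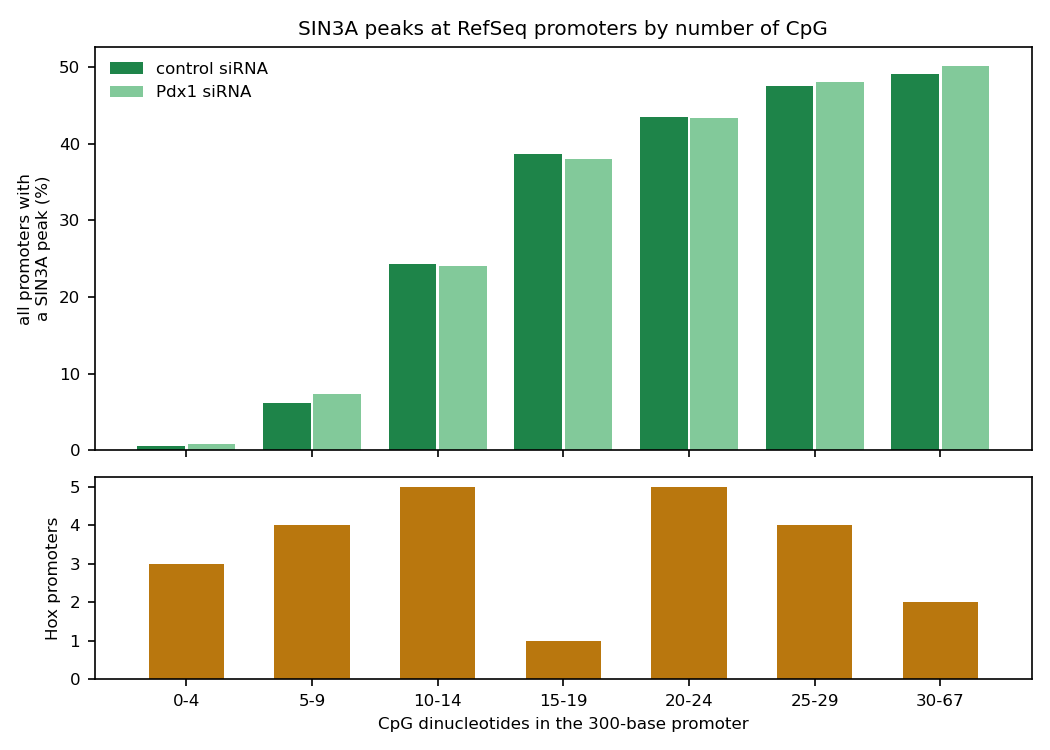
Percent of RefSeq promoters that overlap a SIN3A peak (vertical axis) by number of CpG in the 300-base promoter (horizontal axis), for control siRNA and Pdx1 siRNA, with the number of Hox promoters in each bin. The share rose from 0.58% at 0 to 4 CpG to 49.1% at 30 to 67 CpG with control siRNA, while 0 of the 24 Hox promoters had a peak.

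The promoter of Hoxa13 had the most CpG of the Hox promoters read, and no peak of any list. Hoxa13, at the end of the cluster, acts in the limb and the hindgut. Cbx5 encodes HP1α, a protein of heterochromatin, and lies beyond Hoxc; of the flanking genes' promoters its promoter overlapped the SIN3A peak with the highest score. They are shown to set a Hox promoter that overlapped no peak against the promoter of a gene flanking a different cluster that did. Each was picked as an extreme, Hoxa13 by CpG and Cbx5 by SIN3A score. Of 18 promoters of flanking genes, 10 overlapped a SIN3A peak with control siRNA and 8 with Pdx1 siRNA. Capitals mark the CpG in each, 45 in Hoxa13 (chr6:52260831-52261130, minus strand, 81.0% GC) and 29 in Cbx5 (chr15:103239803-103240102, minus strand, 60.3% GC).
Hoxa13: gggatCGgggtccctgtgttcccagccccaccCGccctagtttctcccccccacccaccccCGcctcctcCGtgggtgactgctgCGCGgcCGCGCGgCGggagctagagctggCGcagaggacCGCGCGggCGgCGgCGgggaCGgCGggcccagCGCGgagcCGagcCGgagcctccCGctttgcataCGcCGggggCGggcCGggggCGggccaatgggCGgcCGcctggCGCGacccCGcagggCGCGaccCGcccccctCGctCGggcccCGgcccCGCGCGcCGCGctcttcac
Cbx5: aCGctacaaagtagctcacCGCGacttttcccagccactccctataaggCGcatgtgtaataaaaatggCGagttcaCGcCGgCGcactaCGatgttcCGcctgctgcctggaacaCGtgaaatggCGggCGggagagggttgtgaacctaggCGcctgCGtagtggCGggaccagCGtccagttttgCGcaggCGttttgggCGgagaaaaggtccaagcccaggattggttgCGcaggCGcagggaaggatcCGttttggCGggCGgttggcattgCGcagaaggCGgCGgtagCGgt
The peak that overlapped the Cbx5 promoter in part (103239994 to 103240218) lies in the body of the adjoining gene Hnrnpa1, and the nearest-gene rule gave it to Hnrnpa1, so that Cbx5 counted as a gene without a SIN3A peak. It had 45.4 tags under control siRNA, with a score of 93 and 24.26-fold over input, and the overlapping peak with Pdx1 siRNA had 46.9 tags. The Hoxa13 promoter, with more CpG, overlapped none, and the reason was not tested.

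In the Hox promoters that were read, 2 of 24 (8.33%) held TAATTA, beside 4.53% of all promoters. Both were entries of the same gene, Hoxd11. A loose NF-κB motif, GGG and CC with any 5 bases between them, occurred in 15 (62.5%), beside 57.1%. The E-box CACGTG, the core bound by clock activators such as BMAL1, occurred in 5 (20.8%), beside 7.84%. All 5 were promoters of Hoxd genes, and BMAL1 itself was not immunoprecipitated. TAAT, which TAATTA contains, occurred in 19 (79.2%), beside 51.8%. These are counts of letters on both strands in a short window. Of the 24 promoters, 1 overlapped a PDX1 peak of WT control cells, beside 2.17% of all promoters.

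Peaks just beyond the limits of the clusters belonged to their neighbours. The farthest of the 6 Hox peaks, and so the one nearest to the 50 kb limit from inside, was the PDX1 peak at 31132 bp from Hoxb9. Just outside, the nearest peak on the Hoxa13 side was a PDX1 peak of WT control cells at 52407 bp (52313287 to 52313493, 2.82 tags), which lies at Evx1, a homeobox gene that borders the Hoxa cluster. A p65 peak of WT cells with IL-1β overlapped it (52313430 to 52313636, 5.23 tags).

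Evx1 had further peaks of both antibodies. A p65 peak of WT cells with IL-1β (52319274 to 52319480, 12.3 tags) overlapped a PDX1 peak of the same cells and treatment (52319266 to 52319492, 5.34 tags). PDX1 in WT control cells had another at 52321558 to 52321764 with 4.32 tags. Evx2, the same kind of gene beside Hoxd, had no peak in any list.

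On the Hoxb13 side of Hoxb a p65 peak in Ttll6, a tubulin-modifying enzyme, lay 53103 bp from Hoxb13 with 19.1 tags in WT cells with IL-1β. The fold over input was 5.21. An overlapping peak was in the list of knockout cells with IL-1β, with 7.06 tags and 7.51-fold over input. At Mtx2, 60773 bp from Hoxd1, the p65 peak of WT cells with IL-1β had 12.3 tags and 4.12-fold over input, and that of knockout cells with IL-1β had 4.59 tags and 7.32-fold over input. Tags and fold over input ran in opposite directions between these lists, and no difference is read from them.

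Genes of the Hox cofactors and of the regulators of the clusters carried peaks of all 3 proteins. Of the 9 TALE cofactors, 8 had a p65 peak in WT cells with IL-1β, beside 46.3% of all genes, and 7 a PDX1 peak in WT control cells, beside 42.2%. SIN3A had peaks at 8 with control siRNA and 7 with Pdx1 siRNA, beside 48.3% and 50.8%. Meis1, a cofactor that stabilises Hox binding to DNA, had a p65 peak of 83.9 tags in WT cells with IL-1β. Pbx3 had a PDX1 peak of 41.9 tags in WT control cells. Long genes have more room for peaks, and the counts were not adjusted for gene length.

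Of 25 Polycomb genes, 17 had a p65 peak in WT cells with IL-1β and 15 in knockout cells with IL-1β, beside 46.3% and 33.1% of all genes, and 3 in WT control cells, beside 9.05%. PDX1 had a peak at 16 in WT control cells, beside 42.2%, and at 3 and 4 in knockout cells without and with IL-1β, beside 16.6% and 16.2%. SIN3A had one at 23 with control and 22 with Pdx1 siRNA, beside 48.3% and 50.8%. Phc2, a subunit of Polycomb repressive complex 1, had the p65 peak with the highest score of the group in WT cells with IL-1β, 174.5 tags. SIN3A peaks stood at Jarid2, which helps recruit Polycomb repressive complex 2, with 42.2 and 47.5 tags, and at Ezh1, a histone methyltransferase of that complex, with 45.4 tags under control siRNA. Of 9 trithorax genes and H3K27 demethylases, 6 had a p65 peak in WT cells with IL-1β, beside 46.3% of all genes, and 8 a SIN3A peak with either siRNA, beside 48.3% and 50.8%. The 4 with a PDX1 peak in WT control cells were near the share of all genes, 42.2%. Kdm6b, which removes the Polycomb mark, had a p65 peak of 97.1 tags and SIN3A peaks of 48.6 and 48.3 tags.

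Of the 6 ParaHox genes, the closest relatives of the Hox genes, 3 had a p65 peak in WT cells with IL-1β and 3 a PDX1 peak in WT control cells, near the 46.3% and 42.2% of all genes. Pdx1 itself had at least 1 PDX1 peak in all 4 PDX1 lists. The highest-scored lay 5558 to 5682 bp from the gene body. It had 73.8 tags in WT control cells, 80.0 with IL-1β, 39.3 in knockout cells and 25.5 in knockout cells with IL-1β, values that belong to separate lists. Of the 4 p65 peaks given to Pdx1 in WT cells with IL-1β, the highest-scored had 97.3 tags and lay 22641 bp from the gene body. SIN3A had peaks at Cdx2 with 31.6 tags under control and 33.2 under Pdx1 siRNA. It was the single ParaHox gene of 6 with a SIN3A peak under control siRNA and 1 of 2 under Pdx1 siRNA, beside 48.3% and 50.8% of all genes. With 6 genes, no difference from all genes and no likeness to the Hox genes is read from these counts.

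The genes around the clusters also carried peaks. Of 17 flanking genes listed, 15 were matched (Prac1 and Prac2 were not), and of these 12 had a p65 peak in WT cells with IL-1β, 10 a PDX1 peak in WT control cells and 10 a SIN3A peak with either siRNA. Their share exceeded that of all genes in these lists (46.3%, 42.2%, 48.3% and 50.8%), while that of the Hox genes fell below it. The flanking genes' shares were not adjusted for gene length, and longer genes have more room for peaks than the short Hox genes. Nothing was tested between them and the Hox genes.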

How the data were processed

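ChIP-seq of p65, PDX1 and SIN3A was deposited as 10 peak lists, 1 per group. Per the file headers, the authors called peaks with HOMER findPeaks (false discovery rate 0.001, p-value over input 0.0001, 4-fold or more over input and over the surrounding 10 kb, 100 bp fragments), and the p65 and PDX1 lists of a condition share an input. Bowtie2, HOMER and mm10 are named in the submitters' processing notes. Signal is given as the authors' tag count per 10 M tags, per the file headers. The score is the authors' position-adjusted tag count, as deposited. The ratio is the authors' fold over input, as deposited. Pooling of replicates is not stated there. Values of different lists stand side by side in places, and no difference in signal was read from them. Scores were compared between lists only with regard to a list's lowest score.

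Peaks were assigned with Python 3.11.15, numpy 2.4.6 and pandas 2.3.3 to the nearest RefSeq GRCm38.p6 gene body within 50 kb, and a peak on overlapping bodies counted for each. From that table, 108 entries with scaffold coordinates were left out. Assignment was tested on simulated data, where 200 of 200 planted peaks went to the right gene. Peaks were shared if they overlapped by at least 1 bp. Shares have Wilson 95% intervals. All Hox peaks were named, and of the other gene lists up to 2 members per peak list with the highest-scored peaks. The Hox genes and the gene lists were chosen with earlier results of these data known. Alternatives were a 10 kb limit, at least 8-fold over input, other overlap rules and lists of equal length.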

Additional observations from a re-analysis of the deposited data

How the results depend on the processing

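The counts of Hox genes with a peak and of Hox peaks were each recomputed with 30 alternatives over all lists. Where the reported count was 0 it could not change, because these settings only remove peaks or genes. In the lists that held Hox peaks, some settings lowered the count. In the p65 list of WT cells with IL-1β, 1 Hox gene and 1 peak (Hoxd3) of 3 had 8-fold or more over input. In the PDX1 list of WT control cells, 2 of 3 were left within 10 kb (without Hoxb9) and 2 of 3 at 8-fold or more over input (without Hoxd8). The other counts did not change under these settings or with 1 gene per peak. The 43 alternative shares of Hox peaks between lists were all 0%. Settings stricter than an overlap of 1 bp could only return 0% again, so they add no support. Counting peaks within 500 bp as shared was a looser rule, chosen after seeing the data. The nearest peak of any other list lay 34.3 kb or more from each Hox peak, so this rule could not change the shares either. Some pairs of equally long lists held no Hox peak and gave no share. Assignment by gene start was not run, because the gene table has no strand and the promoter table covers 22 of 39 Hox genes. No paired analysis was possible because the lists hold no values of single replicates, and leaving out a replicate was not run for the same reason. With 6 Hox peaks, few of them above the lowest scores, differences between conditions were not detectable in these lists.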
